A study of Homo sapiens with 4 samples.

Results

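The genes described here are 110 protein-coding genes of the pre-mRNA splicing machinery, taken from the 60656 gene IDs counted in nascent RNA of HCT116 cells. They were taken by symbol, and the families were chosen with earlier results of these data known. The rule takes the SRSF genes (12 genes), the CLK1 to CLK4 kinases (4), the HNRNP genes (26), the SF3A and SF3B genes (9), U2AF1 and U2AF2 (2), the PRPF genes (13), the SNRPA to SNRPG genes (11) and the RBM genes whose symbol ends with its number (33). The rule reads no measured value, and 4 symbols with a further letter, RBM4B, RBM8A, RBM12B and RBM15B, lie outside it. HCT116 is an established human colorectal carcinoma line. TTchem-seq feeds cells the uridine analogue 4-thiouridine for some minutes and sequences the RNA that has taken it up, so that it counts RNA as it is made.

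The DKO group (2 libraries) carries TOP2A fused to the mAID degron, which lets auxin trigger breakdown of the protein, and is TOP2B -/-. DKO cells received 500 µM auxin for 8 h. The WT group (2 libraries) is labelled wildtype, while the treatment protocol names a TOP2A mAID line with intact TOP2B as the partner of the DKO line, and no auxin is recorded for it. Cells of both groups were arrested in G1 by palbociclib (2 µM for 28 h), which blocks CDK4 and CDK6, and were pulsed with 1 mM 4-thiouridine for 30 min. Loss of the topoisomerases, auxin and any difference between the cell lines separate the groups together and cannot be told apart. The question is what G1 cells transcribe without their type II topoisomerases, which cut DNA and pass a second duplex through the gap to release supercoils and tangles.

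Splicing removes introns from pre-mRNA and is carried out by the spliceosome, which assembles on each intron from small nuclear ribonucleoproteins (snRNPs) and many other proteins. U1 snRNP binds the 5′ splice site, U2AF the 3′ splice site, and U2 snRNP with its SF3A and SF3B subunits the branch site, after which the tri-snRNP of U4, U6 and U5 joins. SR proteins mostly favour the use of nearby exons and hnRNPs often oppose it, and CLK kinases set the phosphorylation of SR proteins. Much splicing takes place while RNA is still being made.

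The DKO libraries held 53000795 and 53777749 counted reads, against 51718468 and 51142867 for the WT libraries, and replicates correlated at r = 0.9969 in DKO and 0.9966 in WT on log2 CPM (counts scaled to 1000000 counted reads, with the TMM factor). TOP2A, whose protein is the target of auxin, stood at 166 ± 2.26 CPM in DKO, against 124 ± 2.43 CPM in WT (SD, n = 2 each). TOP2B stood at 149 ± 1.79 CPM in DKO, against 142 ± 2.05 CPM in WT, so its total count does not show the deletion. Of 10 colorectal epithelium markers, EPCAM, KRT8, KRT18, KRT19, CDH1 and CDX2 were well counted and KRT20, CDX1, VIL1 and CDH17 were at or near 0. The summed level of the 10 was 443 and 428 CPM in DKO against 500 and 468 CPM in WT. By the test, CDH1, KRT8 and KRT18 were lower in DKO, and EPCAM, KRT19 and CDX2 were not called. The 4 immune markers summed to 0.135 CPM or less in each library. Among 4 neuronal markers only SNAP25 differed by the test, at 4.06 and 4.93 CPM in DKO against 0.579 and 0.568 CPM in WT. The part of these markers in the results was not tested. In such bulk samples, fewer transcribing cells and less RNA per cell cannot be told apart. Nothing in the labels ties the replicates to separate cultures, so p-values measure the spread between these libraries, which may be technical.

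The splicing genes took a steady share of nascent RNA, 1.14% and 1.12% of counted reads in DKO against 1.15% and 1.14% in WT, and most of them differed little between the groups. Of 94 members with enough counts to test, 17 were higher in DKO, 18 were lower and 59 were not called. A gene was called at an adjusted p under 0.05 in the quasi-likelihood test of edgeR, with Benjamini-Hochberg adjustment over all 19103 tested genes. The called members made up 37.2% of those tested, with 18.1% higher and 19.1% lower. Among all tested genes 40.1% were called, 19.0% higher and 21.1% lower. Among well-transcribed protein-coding genes, those whose mean log2 CPM was 5 or more, 48.3% were called, 24.9% higher and 23.4% lower. The members' shares thus lie near or below both backgrounds and do not set them apart. The 2 DKO libraries lay both above or both below the 2 WT libraries for 62 of the 94 members, against 67.9% of all tested genes.

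With upper quartile factors in place of TMM factors, the members split into 20 higher and 10 lower. The same change moved all genes from 3632 higher and 4025 lower to 4226 and 3328. Without either WT replicate far fewer members were called in each direction, and the same held over all genes. The direction of none of the 35 called members turned in any of the 10 settings run.

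**Figure D1:**
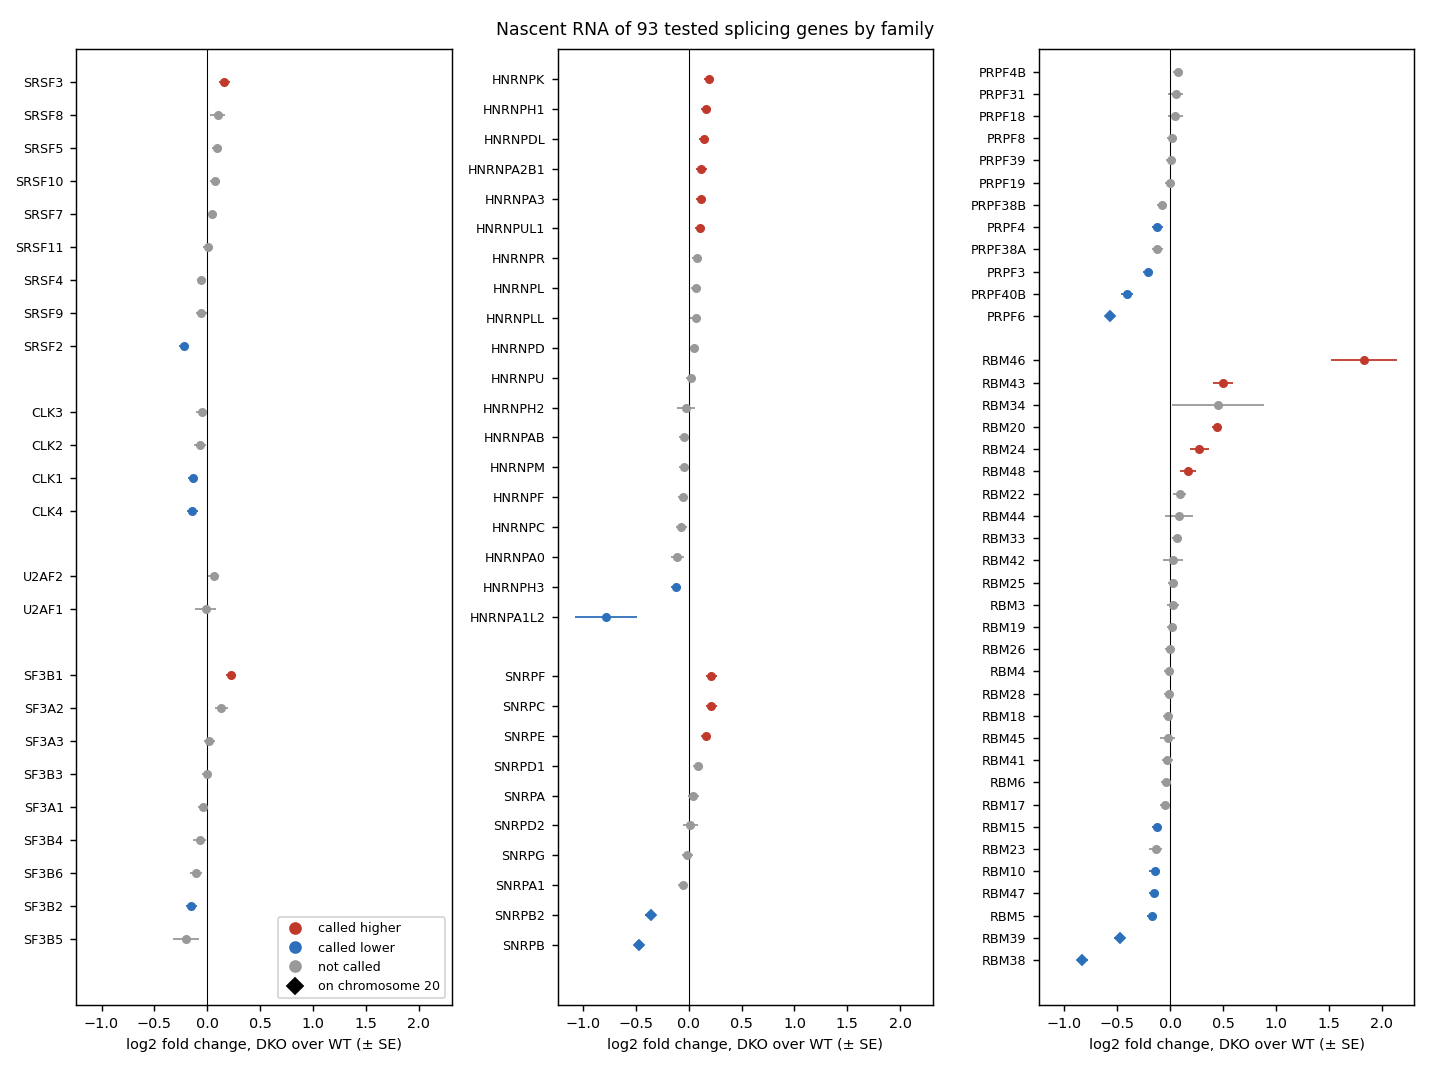
Log2 fold change of DKO over WT for 93 of the 94 tested members, by family, with the standard error as a line (n = 2 libraries per group); red points were called higher, blue points lower, and diamonds lie on chromosome 20. Most points sit close to 0, while RBM46 stands at 1.84 and RBM38 at -0.83.

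The changes were small. The median log2 fold change over the tested members was 0.00, with 47 of the 94 values above 0. The median absolute log2 fold change was 0.08, against 0.11 for the well-transcribed protein-coding genes and 0.19 for all tested genes. Only RBM46, RBM38 and HNRNPA1L2 had an estimated change past 1.5-fold, 3 of 94 members, against 2706 of all 19103 tested genes and 233 of the 5834 well-transcribed protein-coding genes. RBM46 and HNRNPA1L2 lie far below the level of that smaller set.

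**Figure D2:**
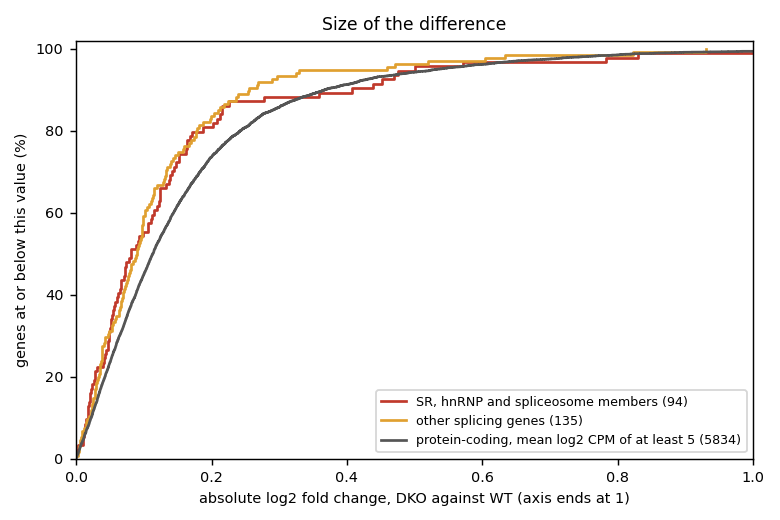
Share of genes (%) whose absolute log2 fold change of DKO against WT is at or below the value on the horizontal axis, for the 94 tested members, the 135 tested other splicing genes and the 5834 well-transcribed protein-coding genes. The members' curve lies above that of the protein-coding genes at small changes, with medians of 0.08 and 0.11.

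Divided by the kilobases of gene span, the highest levels among the members were those of SRSF2, HNRNPA2B1 and HNRNPDL. Whether exons or whole genes were counted is not known, so this order holds only if whole genes were. SRSF2 stood at 46.5 CPM per kb in DKO and 54 in WT, HNRNPA2B1 at 37.0 in DKO and 34.1 in WT, and HNRNPDL at 26.5 in DKO and 24.0 in WT. RBM46, a germ cell gene, stood at 0.0184 CPM per kb in DKO and 0.00509 in WT.

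The other 16 members had too few counts to test, 10 of them listed at 0 in all 4 libraries and none above 13 counts. Among those listed at 0 are HNRNPA1, one of the most abundant hnRNPs of dividing cells, HNRNPUL2, RBM12, RBM14 and RBM27. SRSF1, a founding member of the SR proteins, had 0 and 2 counts in DKO against 2 and 2 in WT, and SRSF6 had 4 and 5 counts in DKO against 13 and 7 in WT. Since such genes are in common use in cultured cells, no level, limit or fold change was taken from these counts. In the RefSeq annotation, 5 of the 16 lie over more than 90% of their span within another gene, against 2 of the 94 tested members (HNRNPH1 and HNRNPH2), and 9 of the 16 overlap no other gene. RBM12 lies within CPNE1, which had 346 and 317 counts in DKO against 761 and 644 in WT, and RBM14 within the readthrough gene RBM14-RBM4, with 1902 and 2011 counts in DKO against 2070 and 1948 in WT. HNRNPA1 has 74 annotated pseudogenes, which held 107 counts over the 4 libraries together. The cause of the low counts was not tested.

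Among the larger falls, the clearest shared feature was position on chromosome 20, with HNRNPA1L2 and PRPF40B as exceptions. The largest rises, those of RBM46, RBM43 and RBM20, lie on other chromosomes. All 5 tested members on chromosome 20, RBM38, PRPF6, RBM39, SNRPB and SNRPB2, were lower in DKO, with a median log2 fold change of -0.48. On this chromosome 310 of 360 tested protein-coding genes were lower and 9 higher, and their median was -0.62, against -0.02 for protein-coding genes elsewhere. The remaining 89 tested members had 17 calls higher (19.1%) and 13 lower (14.6%), 33.7% in all, and a median of 0.01. Off chromosome 20, 20.8% of tested protein-coding genes were higher and 23.4% lower, 44.3% in all. Among the well-transcribed ones there, 25.7% were higher and 21.1% lower, 46.8% in all.

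RBM38, an RNA-binding protein induced by p53 that acts on the stability of CDKN1A mRNA, had 1889 and 1866 counts in DKO against 3177 and 3269 in WT, or 35.5 and 35 CPM against 61.3 and 64.0 CPM. The groups were well apart, with a log2 fold change of -0.83 ± 0.05 (SE, adjusted p = 2.03e-33, edgeR). PRPF6, which bridges U5 to U4 and U6 in the tri-snRNP, had 3396 and 3380 counts in DKO against 5017 and 4709 in WT, a log2 fold change of -0.57 ± 0.05 (adjusted p = 1.64e-22, edgeR). RBM39, a relative of U2AF2 and the protein that indisulam marks for degradation, had 26934 and 26401 counts in DKO against 35801 and 35829 in WT (log2 fold change -0.48 ± 0.05). For both genes every DKO library lay below every WT library.

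SNRPB encodes the B proteins of the Sm ring, the core shared by the spliceosomal snRNPs, and had 3668 and 3574 counts in DKO against 4909 and 4780 in WT (log2 fold change -0.47 ± 0.05). SNRPB2, a U2 snRNP protein that binds the U2 RNA, had 2678 and 2561 counts in DKO against 3247 and 3241 in WT (log2 fold change -0.36 ± 0.05). Set against their own chromosome, 4 of the 5 fell by less than the median gene. SNRPB2 lay 0.26 above the chromosome median, SNRPB 0.15, RBM39 0.14 and PRPF6 0.05, all on the log2 scale, and RBM38 lay below it with a difference of -0.21. Of the 360 genes, 62 were lower than RBM38. Each of the 5 kept its call with any 1 library left out, at adjusted p-values of at most 0.034.

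**Figure D3:**
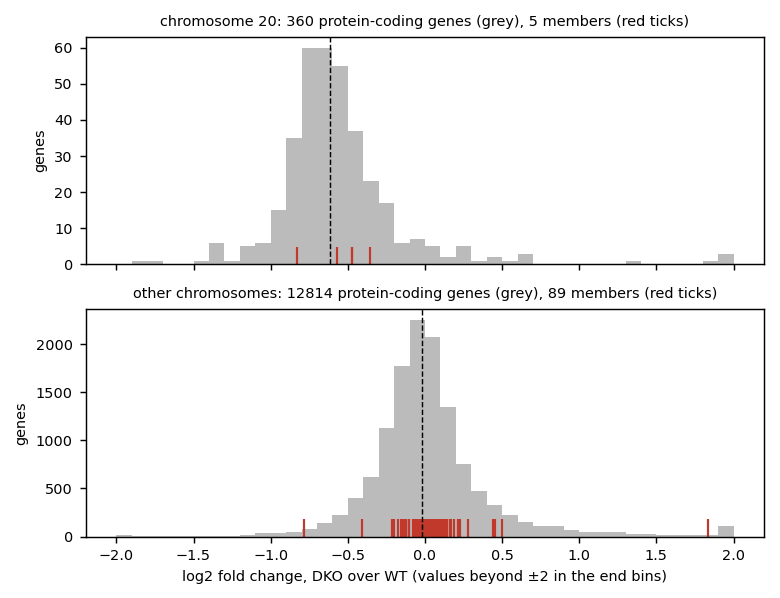
Number of protein-coding genes by log2 fold change of DKO over WT, for 360 genes on chromosome 20 (top) and 12814 on other chromosomes (bottom), with members as red ticks and the median as a dashed line. All 5 chromosome 20 members lie below 0, with the ticks of RBM39 and SNRPB, at -0.48 and -0.47, falling on one another.

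The 5 genes lie far apart on the GRCh38.p14 build. SNRPB spans chr20:2461642-2470789, SNRPB2 chr20:16730026-16742564, RBM39 chr20:35701347-35742260, RBM38 chr20:57391396-57409333 and PRPF6 chr20:63981132-64033100. The lower counts are thus found from one end of the chromosome to the other.

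Promoter windows of 250 bases before and 50 after the gene start were available from RefSeq (GRCh38.p14) for 98 of the 110 members. The 4 windows shown belong to members at the extremes of the called changes: RBM38 and PRPF6, the larger falls on chromosome 20, PRPF40B, the larger fall elsewhere apart from the thinly counted HNRNPA1L2, and RBM46, the largest rise among the members. All lie on the plus strand and are written 5′ to 3′, and capitals mark the letters GGGCGG (the GC box), CCAAT (read by NF-Y), CCGGAAG (an ETS-type core) and CACGTG (the E-box) on either strand, with neighbouring matches able to merge.
RBM38, chr20:57391146-57391445: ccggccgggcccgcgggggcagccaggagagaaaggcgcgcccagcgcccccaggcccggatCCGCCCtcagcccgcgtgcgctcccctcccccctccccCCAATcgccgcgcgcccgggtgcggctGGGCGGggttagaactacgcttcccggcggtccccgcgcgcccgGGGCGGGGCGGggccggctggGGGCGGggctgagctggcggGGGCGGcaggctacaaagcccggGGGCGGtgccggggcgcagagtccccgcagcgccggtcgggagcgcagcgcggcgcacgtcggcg
PRPF6, chr20:63980882-63981181: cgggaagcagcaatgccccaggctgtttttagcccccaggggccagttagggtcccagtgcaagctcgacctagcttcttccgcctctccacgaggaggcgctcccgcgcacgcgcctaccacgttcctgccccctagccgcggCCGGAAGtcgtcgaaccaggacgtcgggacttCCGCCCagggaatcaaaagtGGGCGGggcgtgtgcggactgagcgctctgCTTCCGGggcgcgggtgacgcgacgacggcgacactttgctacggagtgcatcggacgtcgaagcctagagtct
PRPF40B, chr12:49623311-49623610: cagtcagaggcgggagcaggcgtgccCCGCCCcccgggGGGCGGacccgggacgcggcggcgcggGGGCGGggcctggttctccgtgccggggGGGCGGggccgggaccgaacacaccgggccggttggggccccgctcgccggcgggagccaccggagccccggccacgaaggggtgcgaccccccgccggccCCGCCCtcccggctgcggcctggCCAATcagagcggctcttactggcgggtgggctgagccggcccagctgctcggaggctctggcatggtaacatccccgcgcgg
RBM46, chr4:154781022-154781321: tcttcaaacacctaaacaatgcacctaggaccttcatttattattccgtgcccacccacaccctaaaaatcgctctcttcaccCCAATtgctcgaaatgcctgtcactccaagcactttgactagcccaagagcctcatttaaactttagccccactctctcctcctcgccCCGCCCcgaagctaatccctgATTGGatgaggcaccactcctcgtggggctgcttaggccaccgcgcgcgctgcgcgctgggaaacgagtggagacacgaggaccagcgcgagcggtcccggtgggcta

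The window of RBM38 holds 7 GGGCGG and 1 CCAAT, that of PRPF6 2 GGGCGG and 2 CCGGAAG, that of PRPF40B 5 GGGCGG and 1 CCAAT, and that of RBM46 1 GGGCGG and 2 CCAAT. They hold 47, 34, 39 and 19 CpG in that order, against a median of 27 over 85 tested members (range 3 to 48) and of 14 over 35116 RefSeq promoter windows, noncoding genes included. GGGCGG was found in 60 of the 98 member windows (61.2%, against 45.0% of all windows), CCAAT in 47 (48.0% against 34.6%), CCGGAAG in 29 (29.6% against 10.3%) and CACGTG in 12 (12.2% against 7.26%). A match describes letters and is no evidence of binding. The annotated span of PRPF40B begins before its window, at position 49622646.

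The SR proteins and their kinases moved little. Of 9 tested SRSF genes, SRSF3 was higher in DKO, SRSF2 was lower and 7 were not called. Together 22.2% were called, against 40.1% of all tested genes. No family share was tested against that of all genes. SRSF3, the smallest SR protein, had 15515 and 14759 counts in DKO against 12929 and 13190 in WT, a log2 fold change of 0.16 ± 0.05 (adjusted p = 0.00326, edgeR). SRSF2 had 8366 and 7969 counts in DKO against 9527 and 8805 in WT, a log2 fold change of -0.22 ± 0.05 (adjusted p = 5.26e-05, edgeR). The groups did not overlap for either gene. Without WT replicate 1 neither was called, at adjusted p-values of 0.211 for SRSF3 and 0.135 for SRSF2, and SRSF3 had 0.104 without WT replicate 2. The SRSF2 span overlaps those of MFSD11 and MIR636 over 26.6% of its length, so its reads may include theirs.

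The 7 uncalled SRSF genes had log2 fold changes from -0.06 (SRSF9) to 0.10 (SRSF8). SRSF5 stood at 78.8 and 78.7 CPM in DKO against 78.0 and 69.7 CPM in WT (log2 fold change 0.09, adjusted p = 0.131, edgeR), and was called with upper quartile factors. SRSF4 had -0.06, SRSF7 0.05, SRSF10 0.07 and SRSF11 0.01 on the same scale. SRSF11 had 260 and 255 CPM in DKO and 254 and 257 CPM in WT, which overlap.

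Both CLK1 and CLK4, kinases that phosphorylate SR proteins, were slightly lower in DKO. CLK1 stood at 82.5 and 82.9 CPM in DKO against 90.7 and 91.2 CPM in WT (log2 fold change -0.14 ± 0.05, adjusted p = 0.0151, edgeR). CLK4 stood at 64.7 and 59.2 CPM in DKO against 67.2 and 69.4 CPM in WT (log2 fold change -0.14 ± 0.05, adjusted p = 0.0183, edgeR). Replicates of CLK1 lay within 1 CPM of each other in either group, and those of CLK4 lay further apart. Neither was called without WT replicate 1 (adjusted p = 0.143 for CLK1 and 0.214 for CLK4, edgeR), without WT replicate 2 (0.14 and 0.302) or, for CLK4, without DKO replicate 2 (0.308), and with upper quartile factors neither passed (0.0887 and 0.0889). CLK2 (-0.07) and CLK3 (-0.05) were not called, and the groups overlapped for both.

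Among the hnRNPs, 6 of 19 tested genes were higher in DKO (31.6%) and 2 were lower (10.5%), against 19.0% and 21.1% of all tested genes. HNRNPK, which binds C-rich RNA through KH domains, had 14437 and 14211 counts in DKO against 12461 and 11833 in WT, a log2 fold change of 0.19 ± 0.05 (adjusted p = 0.000545, edgeR). HNRNPH1, which binds runs of G, had 12092 and 12825 counts in DKO against 11533 and 9952 in WT (log2 fold change 0.16 ± 0.05, adjusted p = 0.00318, edgeR). The HNRNPK span overlaps those of MIR7-1, HNRNPK-AS1 and RMI1 over 32.3% of its length, and that of HNRNPH1 lies within another annotated gene. The groups did not overlap for either gene, though the WT replicates of HNRNPH1 were about as far apart as the group means. HNRNPDL, a relative of HNRNPD, had a log2 fold change of 0.14 ± 0.05 and HNRNPA2B1, a core hnRNP with roles in splicing and RNA transport, one of 0.12 ± 0.05.

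For HNRNPA2B1 the value was 389 and 412 CPM in DKO against 389 and 348 CPM in WT, so the first DKO library and the first WT library were level. Without WT replicate 2 its log2 fold change was 0.04, that of HNRNPDL 0.06 and that of HNRNPH1 0.07. The calls of HNRNPK, HNRNPH1, HNRNPDL and HNRNPA2B1 ended without either WT replicate, at adjusted p-values of 0.0696 to 0.692, and those of HNRNPH1 and HNRNPA2B1 also without DKO replicate 2 (0.0517 and 0.28). HNRNPUL1 and HNRNPA3, the other rises, were named after their values were seen and had log2 fold changes of 0.11 each. HNRNPUL1 was called in none of the 4 runs with a library left out and HNRNPA3 in 1.

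HNRNPH3, a smaller relative of HNRNPH1, has a span that overlaps those of PBLD and RUFY2 over 28.9% of its length. It stood at 92.7 and 97.8 CPM in DKO against 106 and 101 CPM in WT (log2 fold change -0.12 ± 0.05, adjusted p = 0.0278, edgeR). Its call held in 1 of the 4 runs with a library left out, with adjusted p-values up to 0.37. HNRNPA1L2, an expressed copy of HNRNPA1 named here after its value was seen, had 20 and 22 counts in DKO against 40 and 30 in WT (log2 fold change -0.78 ± 0.29, adjusted p = 0.0241, edgeR), and was called in none of these runs. Its near identity to HNRNPA1, itself at 0, makes its counts uncertain. The 11 uncalled hnRNPs, among them HNRNPC, HNRNPU, HNRNPM and HNRNPD, had log2 fold changes from -0.11 (HNRNPA0) to 0.08 (HNRNPR).

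Of the 9 tested SF3A and SF3B genes, whose proteins hold the branch site within U2 snRNP, SF3B1 was higher in DKO and SF3B2 lower. Together 22.2% were called, against 40.1% of all tested genes. SF3B1, the largest subunit and a frequent site of mutation in blood cancers, had 11815 and 11679 counts in DKO against 9778 and 9635 in WT, or 222 and 219 CPM against 189 and 189 CPM. Replicates nearly coincided, and the log2 fold change was 0.23 ± 0.05 (adjusted p = 2.34e-05, edgeR). SF3B2, its partner within SF3B, had 2554 and 2601 counts in DKO against 2904 and 2628 in WT (log2 fold change -0.15 ± 0.05, adjusted p = 0.0154, edgeR). The second WT library lay close to the DKO libraries. SF3B1 was not called without WT replicate 1 (adjusted p = 0.0698, edgeR) or WT replicate 2 (0.0519), with its log2 fold change at 0.22 in both runs. SF3B2 was not called without DKO replicate 1 (0.0667), WT replicate 1 (0.324) or WT replicate 2 (0.0626), nor with upper quartile factors (0.071).

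The other 7 SF3A and SF3B genes were not called. SF3A2 came nearest, at 37.2 and 36.8 CPM in DKO against 34.8 and 32.7 CPM in WT (log2 fold change 0.13, adjusted p = 0.0589, edgeR), and was called with upper quartile and DESeq2 size factors. SF3B6, which contacts the branch site adenosine, had -0.11 and was called without DKO replicate 1 (-0.21, adjusted p = 0.0151, edgeR). SF3B5, the smallest subunit, had -0.20 with a wide error of 0.12. SF3A1 (-0.04), SF3A3 (0.02), SF3B3 (0.00) and SF3B4 (-0.07) lay close to 0.

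U2AF2, which binds the polypyrimidine tract, stood at 56.6 and 59.6 CPM in DKO against 56.8 and 54.7 CPM in WT (log2 fold change 0.06, adjusted p = 0.377, edgeR). U2AF1, which reads the AG of the 3′ splice site, had 349 and 348 counts in DKO against 325 and 356 in WT (log2 fold change -0.02, adjusted p = 0.917, edgeR). The groups overlapped for both. The hg38 assembly carries a near-identical copy of U2AF1, so its counts are uncertain.

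Among the 13 PRPF genes, 4 were lower in DKO (30.8%) and 1 was higher (7.69%), against 21.1% and 19.0% of all tested genes. Beside PRPF6, the lower ones were PRPF40B, PRPF3 and PRPF4. PRPF40B, a relative of the yeast U1 protein Prp40, had 1919 and 1846 counts in DKO against 2427 and 2397 in WT, a log2 fold change of -0.41 ± 0.06 (adjusted p = 1.38e-10, edgeR). The groups were well apart, and it was the only member lower in DKO and off chromosome 20 that was called with each library left out. Its span overlaps those of FAM186B and FMNL3 over 37.6% of its length.

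PRPF3 and PRPF4, proteins of the U4 and U6 snRNP, both fell. PRPF3 stood at 70.6 and 68.7 CPM in DKO against 79.4 and 81.6 CPM in WT (log2 fold change -0.21 ± 0.05), and PRPF4 at 61.8 and 57.6 CPM in DKO against 64.1 and 65.9 CPM in WT (-0.12 ± 0.05, adjusted p = 0.0443, edgeR). The groups did not overlap for either gene. PRPF3 was not called without WT replicate 1 (adjusted p = 0.0694, edgeR) or WT replicate 2 (0.0776), and PRPF4 was called only without DKO replicate 1 among the 4 runs with a library left out. PRPF4 was not called with DESeq2 size factors (0.0614) or upper quartile factors (0.17). PRPF8, the protein at the catalytic centre, had 80.0 and 78.5 CPM in DKO against 82.5 and 74.1 CPM in WT, which overlap.

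Of 10 tested snRNP protein genes, SNRPB and SNRPB2, both on chromosome 20, were lower in DKO, SNRPF, SNRPC and SNRPE were higher, and 5 were not called. SNRPF, a Sm ring protein, had 4688 and 4330 counts in DKO against 3679 and 3825 in WT (log2 fold change 0.22 ± 0.05, adjusted p = 0.000129, edgeR). SNRPC, the U1 protein that helps recognise the 5′ splice site, had 3068 and 3011 counts in DKO against 2512 and 2554 in WT (0.21 ± 0.05, adjusted p = 0.000395, edgeR). SNRPE, another Sm protein, stood at 68.3 and 62.0 CPM in DKO against 57.3 and 59.1 CPM in WT (0.16 ± 0.05). For all 3 both DKO libraries lay above both WT libraries.

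None of these 3 rises was called without WT replicate 1 (adjusted p = 0.178 for SNRPF, 0.101 for SNRPC and 0.295 for SNRPE, edgeR) or without WT replicate 2 (0.0714, 0.053 and 0.162), and SNRPE was not called without DKO replicate 1 (0.217). Among 6 tested proteins of the Sm ring, SNRPE and SNRPF were higher, SNRPB was lower, and SNRPD1, SNRPD2 and SNRPG were not called. That is 33.3% higher and 16.7% lower, against 19.0% and 21.1% of all tested genes. SNRPD1 stood at 129 and 122 CPM in DKO against 114 and 121 CPM in WT (log2 fold change 0.09, adjusted p = 0.113, edgeR), and was called with upper quartile factors and without DKO replicate 2.

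**Figure D4:**
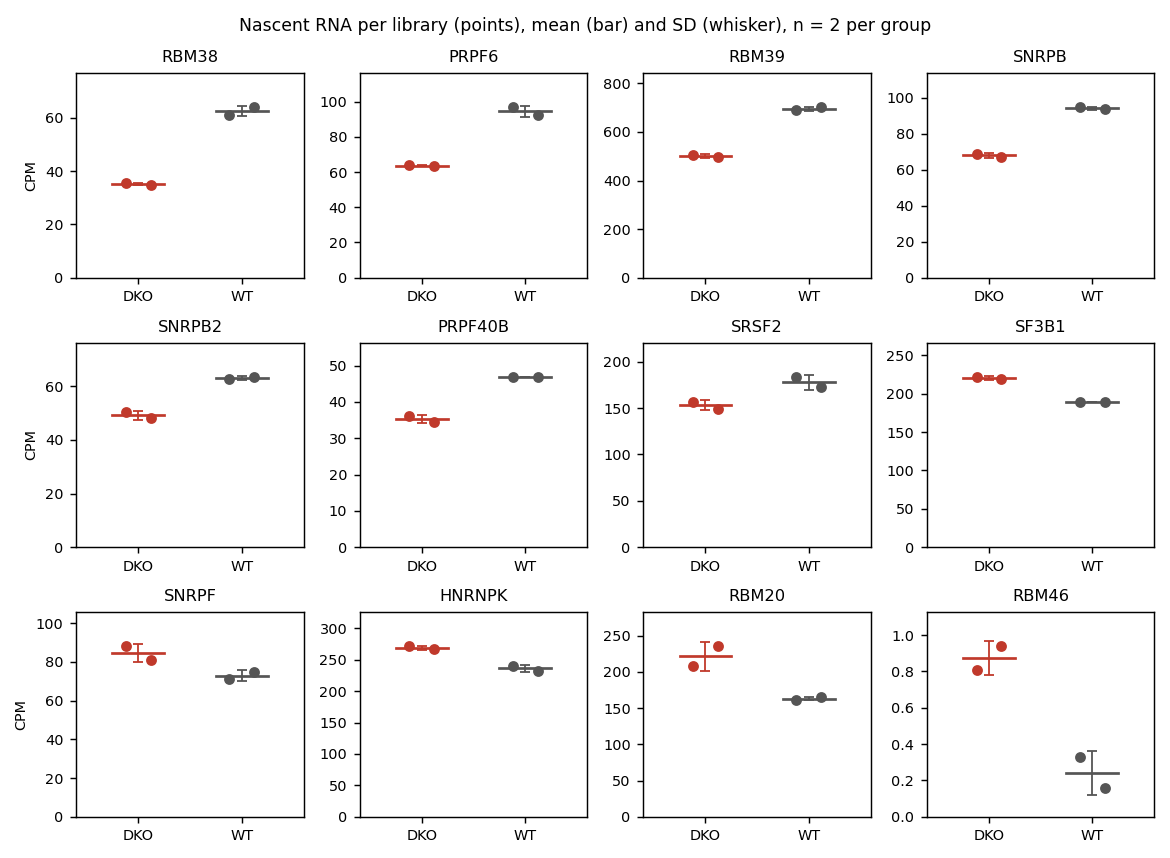
Nascent RNA level in CPM of 12 members in each library, DKO left in red and WT right in grey, with the group mean as a bar and the SD as a whisker (n = 2 libraries per group). The 12 were picked from the called members, and in all 12 panels both DKO libraries lie on one side of both WT libraries. This holds for 67.9% of all tested genes. RBM46 lies below 1 CPM in every library.

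The RBM genes, a varied group of RNA-binding proteins, held the widest changes, with 5 of 28 tested genes higher in DKO and 6 lower. These shares, 17.9% and 21.4%, lie near the 19.0% and 21.1% of all tested genes. RBM46, which germ cells of the mouse need for meiosis, had 43 and 50 counts in DKO against 17 and 8 in WT. At this depth the log2 fold change of 1.84 ± 0.31 (adjusted p = 2.14e-07, edgeR) rests on few reads, and it lay between 1.40 and 2.46 with a library left out. It falls below the level set for naming genes and was named after its value was seen. It was the only member higher in DKO that was called in all 4 of those runs.

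RBM20, a splicing regulator of titin in heart muscle, had 11040 and 12538 counts in DKO against 8387 and 8408 in WT, a log2 fold change of 0.44 ± 0.05 (adjusted p = 1.59e-15, edgeR). The DKO replicates were further apart than the WT replicates, and the groups did not overlap. Without WT replicate 1 it was not called (0.43, adjusted p = 0.0625, edgeR). RBM20 spans 196 kb (chr10:110643245-110839468). Of 13 tested members that span over 50 kb, 2 were higher and 2 lower, against 30.5% higher and 21.0% lower among the well-transcribed protein-coding genes of that length.

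RBM43 had 516 and 579 counts in DKO against 356 and 391 in WT (log2 fold change 0.50 ± 0.09, adjusted p = 1.93e-06, edgeR). RBM24, a splicing regulator of muscle, had 605 and 529 counts in DKO against 452 and 452 in WT (0.28 ± 0.09, adjusted p = 0.00803, edgeR), and RBM48, a protein of the minor spliceosome, stood at 19.4 and 19.0 CPM in DKO against 16.8 and 17.3 CPM in WT (0.17 ± 0.07, adjusted p = 0.0499, edgeR). Both DKO libraries lay above both WT libraries for the 3 genes. RBM43 was not called without WT replicate 1 (0.42, adjusted p = 0.0878, edgeR), RBM24 was called only without DKO replicate 2, and RBM48 in none of the 4 runs.

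Beside RBM38 and RBM39, RBM5, RBM47, RBM10 and RBM15 were lower in DKO. RBM5, a splicing regulator of apoptosis genes, stood at 59.1 and 60.2 CPM in DKO against 68.5 and 65.8 CPM in WT (log2 fold change -0.17 ± 0.05, adjusted p = 0.00342, edgeR). RBM47, an epithelial RNA-binding protein that works with APOBEC1, stood at 81.3 and 91.4 CPM in DKO against 92.2 and 99.7 CPM in WT (-0.15 ± 0.05, adjusted p = 0.00735, edgeR). The higher DKO library of RBM47 came within 1 CPM of the lower WT library, and without DKO replicate 1 its value was -0.07. RBM10, a paralog of RBM5, and RBM15, an adaptor of the m6A methyltransferase, had -0.15 and -0.12 and were named after their values were seen.

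The fall of RBM5 was not called without WT replicate 1 (adjusted p = 0.156, edgeR) or WT replicate 2 (0.0661), and RBM47, RBM10 and RBM15 were each called in 1 of the 4 runs. The 17 uncalled RBM genes include RBM25, RBM17 and RBM22, all spliceosome proteins. RBM22 stood at 38.3 and 36.3 CPM in DKO against 35.4 and 34.7 CPM in WT (log2 fold change 0.09, adjusted p = 0.225, edgeR). RBM34, at 13 and 14 counts in DKO against 9 and 10 in WT, was too shallow to place (0.45 ± 0.43).

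**Figure D5:**
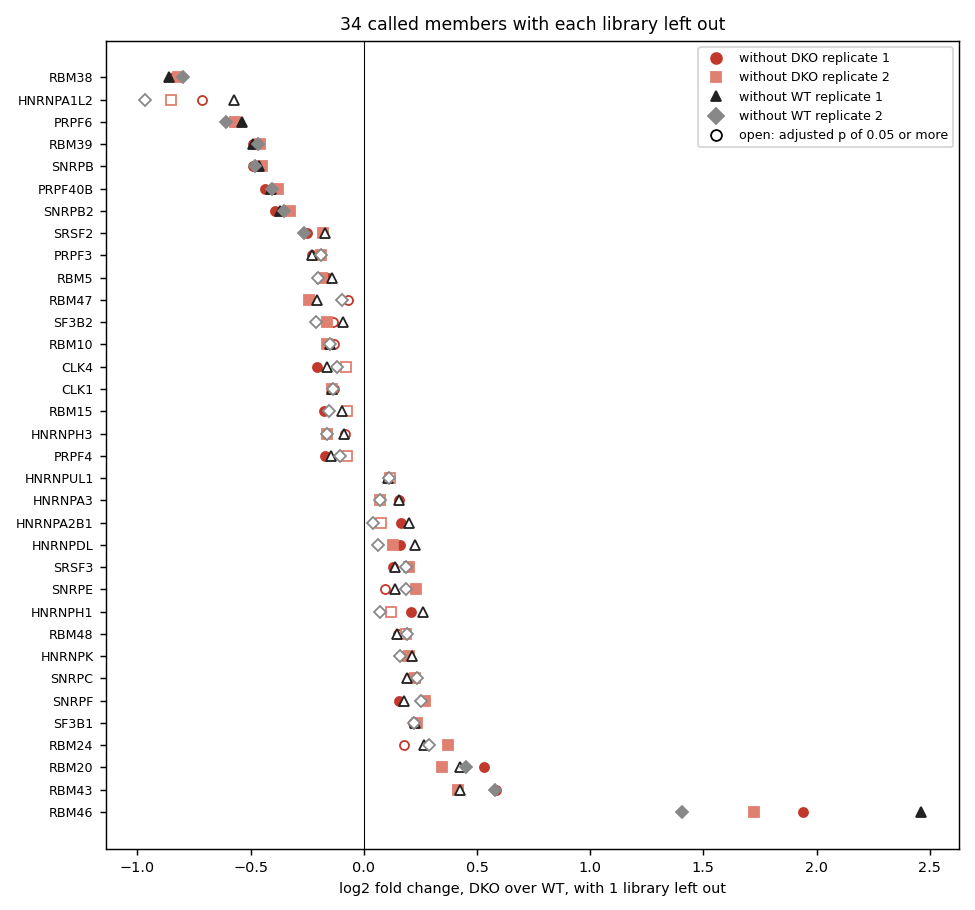
Log2 fold change of DKO over WT for 34 of the 35 called members with each library left out in turn, 1 symbol shape per library left out, with open symbols where the adjusted p was 0.05 or more. All symbols stay on the side of 0 of their gene, and 7 genes, RBM38, PRPF6, RBM39, SNRPB, SNRPB2, PRPF40B and RBM46, have 4 filled symbols.

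More calls ended without a WT library than without a DKO library. With a WT library left out, the spread comes from the DKO libraries alone. Of the 35 called members, 26 kept their call without DKO replicate 1 and 25 without DKO replicate 2, against 7 without WT replicate 1 and 10 without WT replicate 2. Over all genes, the same runs gave 3127, 3032, 1023 and 1467 calls higher in DKO. The 7 members called in every run are the 5 tested on chromosome 20, PRPF40B and RBM46. With no filter on low counts, 12 of the 35 kept their call, namely those 7 with PRPF3, HNRNPK, SNRPC, SF3B1 and RBM20. By the Wald test of DESeq2 21 kept it, and the 14 that missed it were CLK1, CLK4, HNRNPA1L2, HNRNPA2B1, HNRNPA3, HNRNPH3, HNRNPUL1, PRPF4, RBM10, RBM15, RBM24, RBM47, RBM48 and SF3B2. With upper quartile factors 8 lower calls ended, those of CLK1, CLK4, HNRNPH3, PRPF4, RBM10, RBM15, RBM47 and SF3B2, at adjusted p-values of 0.0592 to 0.17 (edgeR). With DESeq2 size factors those of PRPF4 and RBM15 ended (0.0614 and 0.0506).

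Splicing genes outside the families were counted from 5 lists with 146 gene IDs, of which 135 could be tested. In DKO 19 were higher and 22 lower (30.4% called, again below the 40.1% of all tested genes), and the median log2 fold change was 0.00. With upper quartile factors the split was 28 higher and 15 lower, and without WT replicate 1 it was 4 and 2. Over all genes, upper quartile factors gave 4226 higher and 3328 lower. The lists and the members were not tested against each other.

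Of 21 tested SR-related proteins and SR protein kinases, 3 were called by edgeR (14.3%, against 40.1% of all tested genes), all of them higher. TRA2B, an SR-like activator of exons, had 25193 and 25364 counts in DKO against 20778 and 20170 in WT (log2 fold change 0.25 ± 0.05), RSRC1 had 0.21 and BCLAF1, named after its value was seen, 0.21. The groups did not overlap for TRA2B. Without WT replicate 1 or 2 TRA2B missed the threshold (adjusted p = 0.059 and 0.0505, edgeR), as did RSRC1 (0.157 and 0.101).

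Of 51 other core spliceosome proteins, 7 were higher (13.7%) and 8 lower (15.7%), against 19.0% and 21.1% of all tested genes. DHX8, the helicase that frees the finished mRNA, had 3625 and 3687 counts in DKO against 2842 and 2934 in WT (log2 fold change 0.29 ± 0.05), and CDC5L, of the PRP19 complex, had 0.27 ± 0.05. CRNKL1, a scaffold protein on chromosome 20, had 1415 and 1352 counts in DKO against 2062 and 2001 in WT (-0.60 ± 0.06), and LSM7, of the U6 snRNP, had -0.30 ± 0.07. CDC5L and CRNKL1 were called with any 1 library left out. DHX8 was not called without WT replicate 1 (adjusted p = 0.0573, edgeR), and LSM7 without WT replicate 1 (0.136) or 2 (0.0511).

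Of 16 tested snRNP assembly genes, 5 were lower (31.2%) and 1 higher (6.25%), against 21.1% and 19.0% of all tested genes. GEMIN4 and GEMIN8, of the SMN complex that loads Sm rings, had log2 fold changes of -0.24 ± 0.06 and -0.22 ± 0.09, and COIL, the marker protein of Cajal bodies, 0.14 ± 0.05. GEMIN4 was called in 2 of the 4 runs with a library left out, without either DKO replicate, COIL in 1 and GEMIN8 in none. Of 14 exon junction and nonsense-mediated decay genes, 1 was higher and 1 lower (14.3% called, against 40.1% of all tested genes). The lower one was UPF3B (-0.17 ± 0.07), which was called in none of these runs.

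The widest differences in these lists lay among the other splicing regulators, with 7 of 33 tested genes higher and 8 lower. Those shares, 21.2% and 24.2%, stand beside 19.0% and 21.1% of all tested genes. QKI, which binds intron sites known as QKI response elements, had 11072 and 11511 counts in DKO against 7146 and 6913 in WT, a log2 fold change of 0.63 ± 0.05 (adjusted p = 6.98e-28, edgeR). MBNL1, the regulator sequestered in myotonic dystrophy, had 43458 and 47178 counts in DKO against 35166 and 34540 in WT (0.33 ± 0.05). The groups were apart for both. RBMX2, of the activated spliceosome, had -0.52 ± 0.09, and RALY, an hnRNP-like protein on chromosome 20, -0.46 ± 0.05. QKI and RALY were called with any 1 library left out, while MBNL1 and RBMX2 were not called without WT replicate 1 (adjusted p = 0.0707 and 0.085, edgeR).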

How the data were processed

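The authors deposited unnormalised counts of reads for each Ensembl gene ID and library. The submitters' processing notes name hg38, STAR 2.7.3a and featureCounts 1.6. Strand setting, gene set and counted feature (exons or whole genes) are not given in the sources used for this work, so reads of overlapping, antisense or near-identical genes cannot be told apart. No spike-in is known, and values are relative to each library's total.

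A symbol was found for 42020 of 60656 IDs and a RefSeq entry (GRCh38.p14) for 40513. Counts were tested in R 4.3.3 with edgeR 4.0.16 (quasi-likelihood F-test on group, TMM factors), after filterByExpr at a minimum count of 10 and minimum total of 15. P-values were Benjamini-Hochberg adjusted over 19103 genes and called under 0.05. The standard error is the absolute log2 fold change over the square root of F. It can be too small for genes with few counts or uneven replicates. The mean log2 CPM used a prior count of 2.

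Named genes are all tested SRSF, CLK, SF3 and U2AF members, the 4 largest called rises and falls of each other family and the 2 largest of each further list, at a mean log2 CPM of at least 3. The members and lists were chosen with earlier results of these data known. Alternatives were DESeq2 size factors, upper quartile factors, no filter, the Wald test of DESeq2 1.42.0, voom of limma 3.58.1, a replicate block, each library left out, members off chromosome 20 and symbols with a further letter. Some genes that the rule picks are left out of the text and of the figures that name genes. Protein sequences were not analysed here. Figures were drawn with matplotlib 3.10.9.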

Additional observations from a re-analysis of the deposited data

How the results depend on the processing

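The members called higher (17) and lower (18) in DKO numbered 5 and 7 with no filter on low counts, and the lower ones 10 with upper quartile factors and 9 with the DESeq2 Wald test. With 1 library left out they ranged from 1 to 13 higher and from 6 to 16 lower. The other splicing genes (19 higher, 22 lower) gave 9 and 6 with no filter and 13 lower with the Wald test, and ranged from 4 to 20 and from 2 to 21 with a library left out. All genes (3632 and 4025) gave 1640 and 1655 with no filter and 2524 lower with the Wald test, and ranged from 1023 to 3127 and from 928 to 3443. The members' median log2 fold change was 0.034 with upper quartile factors, against 0.028 over all tested genes. The members' median was 0.012 off chromosome 20, and lay between -0.006 and 0.008 with a library left out. Values near 0 that changed sign were never called: SF3B3 was 0.006 with DESeq2 size factors and with the Wald test, 0.033 with upper quartile factors and -0.015 to 0.009 with a library left out, U2AF1 was 0.018 with upper quartile factors and -0.093 to 0.060 with a library left out, and SRSF11, CLK2 and SF3A1 ranged from -0.002 to 0.024, from -0.135 to 0.002 and from -0.113 to 0.036. The cause was not tested. Of the values of 70 named genes under these alternatives, 528 kept direction and side of the threshold, 158 lost the call, 4 gained a call and 10 changed sign. Deviations of replicates with the same number were nearly uncorrelated between the groups (0.0114), which does not settle whether samples were prepared in pairs. The replicate block gave 16 members higher and 18 lower, 22 and 23 other splicing genes and 3742 and 4078 of all genes, and among called members ended only the call of RBM48 (adjusted p = 0.0608, edgeR).

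Calls with an adjusted p close to 0.05, such as those of HNRNPUL1 and RBM48, lie at the limit of 2 libraries a group, and a run with a library left out assumes that its lone partner varies like the other group. RBM46, HNRNPA1L2 and RBM34 are limited by their few counts. Levels of the 16 untested members are unknown.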
